A study of Homo sapiens with 36 samples.

Results

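The genes described are those of the constitutive proteasome: its core outside the catalytic subunits, its regulatory cap and the factors that assemble it. They were taken by name, as the protein-coding rows whose symbol is PSM, a letter from A to G and a number, without the 3 catalytic subunits PSMB5, PSMB6 and PSMB7 and the 5 interferon-inducible genes PSMB8, PSMB9, PSMB10, PSME1 and PSME2. The rule gave 38 of 21599 rows, and all 38 passed the filter on low values. They comprise 7 genes of the alpha ring, 4 non-catalytic beta subunits, 6 ATPases, 3 scaffold or receptor subunits of the base, 8 lid subunits, 4 core assembly chaperones, 3 base assembly chaperones and 3 alternative caps or inhibitors. PSMA8 and PSMB11 fit the name rule and were not analysed here.

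The proteasome degrades proteins that carry ubiquitin chains. Its barrel-shaped core has outer rings of alpha subunits, which gate the channel, around inner rings of beta subunits, some of which cut peptide bonds. The 19S cap has a base, whose ATPases unfold substrates, and a lid, which removes ubiquitin, and separate chaperones bring core and base together. In interferon-treated macrophages, inducible beta subunits take the place of the catalytic ones and form the immunoproteasome, and the alpha ring and most other subunits are common to both forms.

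The study sequenced RNA from THP-1 cells, a human monocytic leukaemia line, in 36 libraries. The cells were wild type (WT) or knocked out (KO) for IRG1, now ACOD1, which encodes the enzyme that makes itaconate, and the study's title links itaconate with ubiquitination. Cells of both genotypes first received 100 nM PMA for 72 h, which turns them into macrophage-like cells, and then either vehicle or 200 ng/mL LPS together with 200 ng/mL IFN-γ for 6, 12 or 24 h. The 12 groups of genotype, treatment and time held 3 libraries each. The labels give neither the method of knockout nor the number of clones, and do not say that replicates were separate cultures, so the spread behind each p-value is that between libraries, which may be technical.

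All values are log2 values as deposited, and triplets give replicates 1, 2 and 3. A change is a difference of group means with its standard error (n = 3 per group), and a gene is called at a Benjamini-Hochberg adjusted p below 0.05 from limma over 21232 rows. Whether levels were scaled by gene length is not given in the sources used here, so genes are compared only by their changes. In bulk RNA, fewer cells of a type and less RNA per cell cannot be told apart.

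All 10 macrophage markers were detected (CD68 at 10.45 to 13.53 and SPI1 at 9.37 to 11.84). Of markers of other cell types, CD3D ran from 0 to 3.89 and CD8A from 1.62 to 6.26 (T cells), CD79A from 1.85 to 5.82 (B cells), KRT18 from 0.14 to 3.92 and CDH1 from 0.04 to 5.81 (epithelium), and PDGFRB from 0.39 to 4.02 and COL1A1 from 2.87 to 7.86 (fibroblasts). CD4, which macrophages also express, ran from 7.51 to 10.76. The targeted ACOD1 lay at or below 0.86 in the 18 vehicle libraries. In stimulated cells it was lower in KO than in WT by 3.31 on the log2 scale at 6 h (adjusted p = 3.74e-05), 2.69 at 12 h (0.00087) and 1.48 at 24 h (0.0597, not called), so the knockout cells still had ACOD1 transcript after stimulation. The library labelled KO stimulated 6 h replicate 2 correlated with its group at a mean r of 0.839 and WT stimulated 24 h replicate 3 at 0.8704, against 0.8905 to 0.9642 in the other 34. Sequencing depth is unknown.

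Stimulation changed the subcomplexes in different directions. In WT cells 7 members rose and 5 fell at 6 h, against 15.1% and 20.9% of all rows, 7 rose and 4 fell at 12 h (16.8% and 21.7%), and 5 rose and 14 fell at 24 h (20.2% and 26.1%). In KO cells 6 rose and 2 fell at 6 h (16.2% and 22.5%), 7 rose and 3 fell at 12 h (15.5% and 19.5%), and 7 rose and 2 fell at 24 h (17.3% and 21.6%). As shares of the 38 members, the rises were 13.2% to 18.4% over the comparisons, where those of all rows were 15.1% to 20.2%, and the difference was not tested. The falls were 36.8% of members in WT at 24 h and 5.26% in KO at 24 h. The median member changed by -0.06, -0.20 and -0.42 in WT at 6, 12 and 24 h, where the median row changed by -0.17, -0.18 and -0.11. In KO the median member changed by 0.00, 0.06 and -0.03, where the median row changed by -0.20, -0.12 and -0.08. The change at 24 h against that at 6 h was called for 2 members in WT, PSMC4 and PSMG2, both lower at 24 h as were 5.26% of rows, and for 1 in KO, PSMA2, lower at 24 h as were 3.41%. Each of the WT calls was lost on leaving out any 1 of 8 of its 12 libraries.

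**Figure D1:**
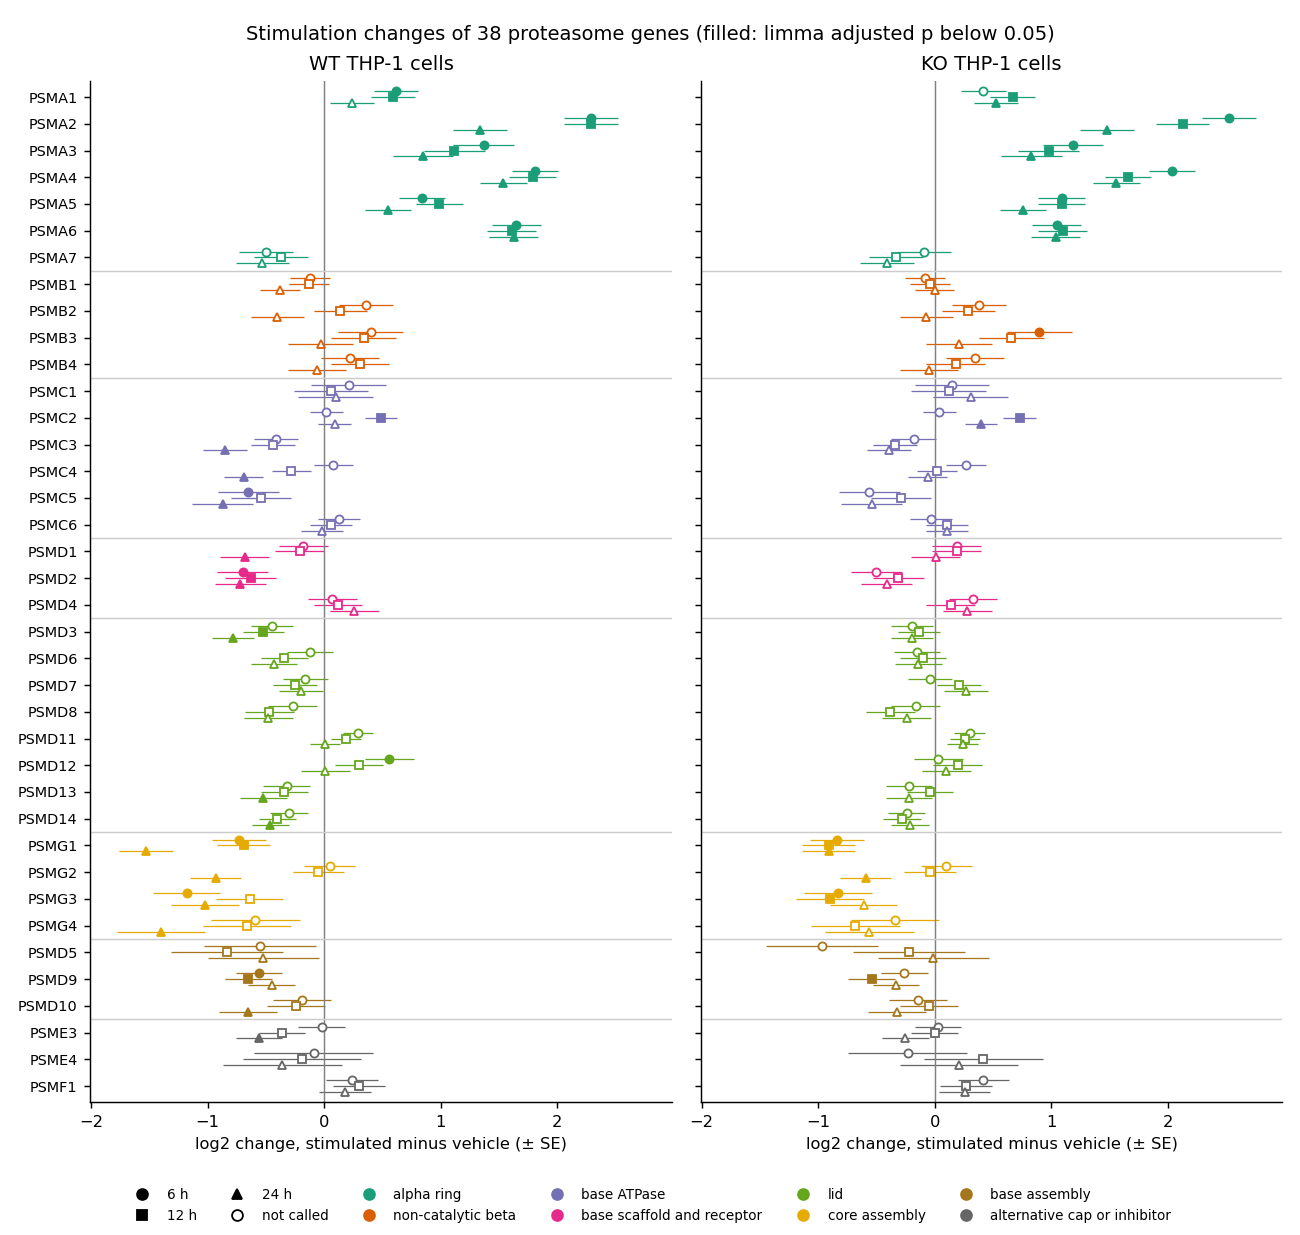
Log2 change on stimulation (x axis, stimulated minus vehicle, bars are standard errors) of each of the 38 genes (y axis, grouped and coloured by subcomplex) in WT and KO cells at 6 h (circles), 12 h (squares) and 24 h (triangles). Filled points are called by limma. The alpha-ring genes other than PSMA7 lie to the right of 0, and the core assembly chaperones lie to the left in most comparisons.

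The rises were concentrated in the alpha ring, the gate-forming outer ring of the core. PSMA2, PSMA3, PSMA4, PSMA5 and PSMA6 rose at all 3 times in both genotypes, PSMA1 rose at 6 and 12 h in WT and at 12 and 24 h in KO, and PSMA7 was called in none of these 6 comparisons. These alpha-ring genes made up 6 of the 7 rises in WT at 6 h, 6 of 7 at 12 h and all 5 at 24 h. The median change of the 7 alpha-ring genes was 1.37, 1.12 and 0.85 in WT at 6, 12 and 24 h, and 1.09, 1.09 and 0.83 in KO.

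PSMA2 had the largest mean change of the ring. In WT vehicle cells it stood at 8.08, 8.26 and 8.33 at 6 h, and in stimulated cells at 10.20, 10.52 and 10.83. At 24 h the vehicle values were 7.90, 8.31 and 8.57 and the stimulated values 9.65, 9.37 and 9.79. Every stimulated library lay above every vehicle library of its time and genotype, and the 24 h stimulated values lay below all 6 h stimulated ones. The changes in WT were 2.29 ± 0.23 at 6 h (adjusted p = 4.08e-09), 2.29 ± 0.23 at 12 h (4.51e-09) and 1.34 ± 0.23 at 24 h (1.95e-05). In KO cells vehicle values of 8.01, 8.65 and 8.30 at 6 h stood against 10.64, 11.08 and 10.82 after stimulation, and the changes were 2.53 ± 0.23, 2.13 ± 0.23 and 1.48 ± 0.23 at 6, 12 and 24 h. The change at 24 h was smaller than that at 6 h by 1.05 in KO (limma adjusted p = 0.0442, a call lost on leaving out any 1 of 7 of its 12 libraries, with differences of -0.84 to -1.06) and by 0.95 in WT (0.0565, and 0.017 with the replicate number as a block).

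PSMA4 rose in WT by 1.81 at 6 h, 1.79 at 12 h and 1.54 at 24 h, and in KO cells by 2.04, 1.66 and 1.56, each ± 0.20. Its WT vehicle values at 24 h were 6.54, 6.99 and 7.29 and its stimulated values 8.44, 8.41 and 8.58, so the groups did not overlap. PSMA6 kept nearly the same change over time, with 1.65, 1.61 and 1.63 for WT and 1.05, 1.10 and 1.04 for KO cells, each ± 0.21. The rises of PSMA3 were 1.37, 1.12 and 0.85 in WT, against 1.19, 0.98 and 0.83 in KO, each ± 0.26. Those of PSMA5 were 0.84, 0.99 and 0.55 in WT, against 1.09, 1.09 and 0.76 in KO, each ± 0.20. PSMA1 changed by 0.62, 0.59 and 0.24 in WT cells, whereas KO cells gave 0.42, 0.67 and 0.53, each ± 0.19, and its adjusted p was 0.318 in WT at 24 h and 0.0811 in KO at 6 h (0.0265 with the replicate block).

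Of these alpha-ring calls, those of PSMA2, PSMA4 and PSMA6 held on leaving out each library in turn. The WT 24 h call of PSMA3 was lost without vehicle replicate 1 (0.64) or stimulated replicate 3 (0.58), and its KO 24 h call without stimulated replicate 3 (0.63). The WT 24 h call of PSMA5 was lost without vehicle replicate 1 (0.35), vehicle replicate 2 (0.56) or stimulated replicate 3 (0.43). PSMA1 lost its WT 6 h call without stimulated replicate 3 (0.50), its WT 12 h call without vehicle replicate 1 (0.56), vehicle replicate 2 (0.54) or stimulated replicate 3 (0.45), and its KO 24 h call without vehicle replicate 1 (0.42) or 3 (0.53) or stimulated replicate 2 (0.43) or 3 (0.51). PSMA3 overlaps the antisense gene PSMA3-AS1, and PSMA6 overlaps a PRORP-PSMA6 readthrough locus and has 2 pseudogene rows in the table. Whether the counting used strand is not given in the sources used here, so reads of such neighbours cannot be told apart.

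PSMA7 was the alpha-ring gene with a negative change in every comparison. Its WT vehicle values at 6 h were 10.01, 10.19 and 10.02 and its stimulated values 9.39, 9.45 and 9.88, which do not overlap. Its changes were -0.50, -0.37 and -0.53 in WT (adjusted p = 0.0872, 0.208 and 0.0605) and -0.09, -0.33 and -0.41 in KO, each ± 0.23. With the replicate number as a block PSMA7 was called in WT at 6 h (0.0422) and 24 h (0.0277), and without the 2 libraries that stood apart at 24 h (-0.74, 0.00274). In KO stimulated 6 h cells its values were 9.34, 10.43 and 9.54, and the highest came from replicate 2, which stood apart.

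**Figure D2:**
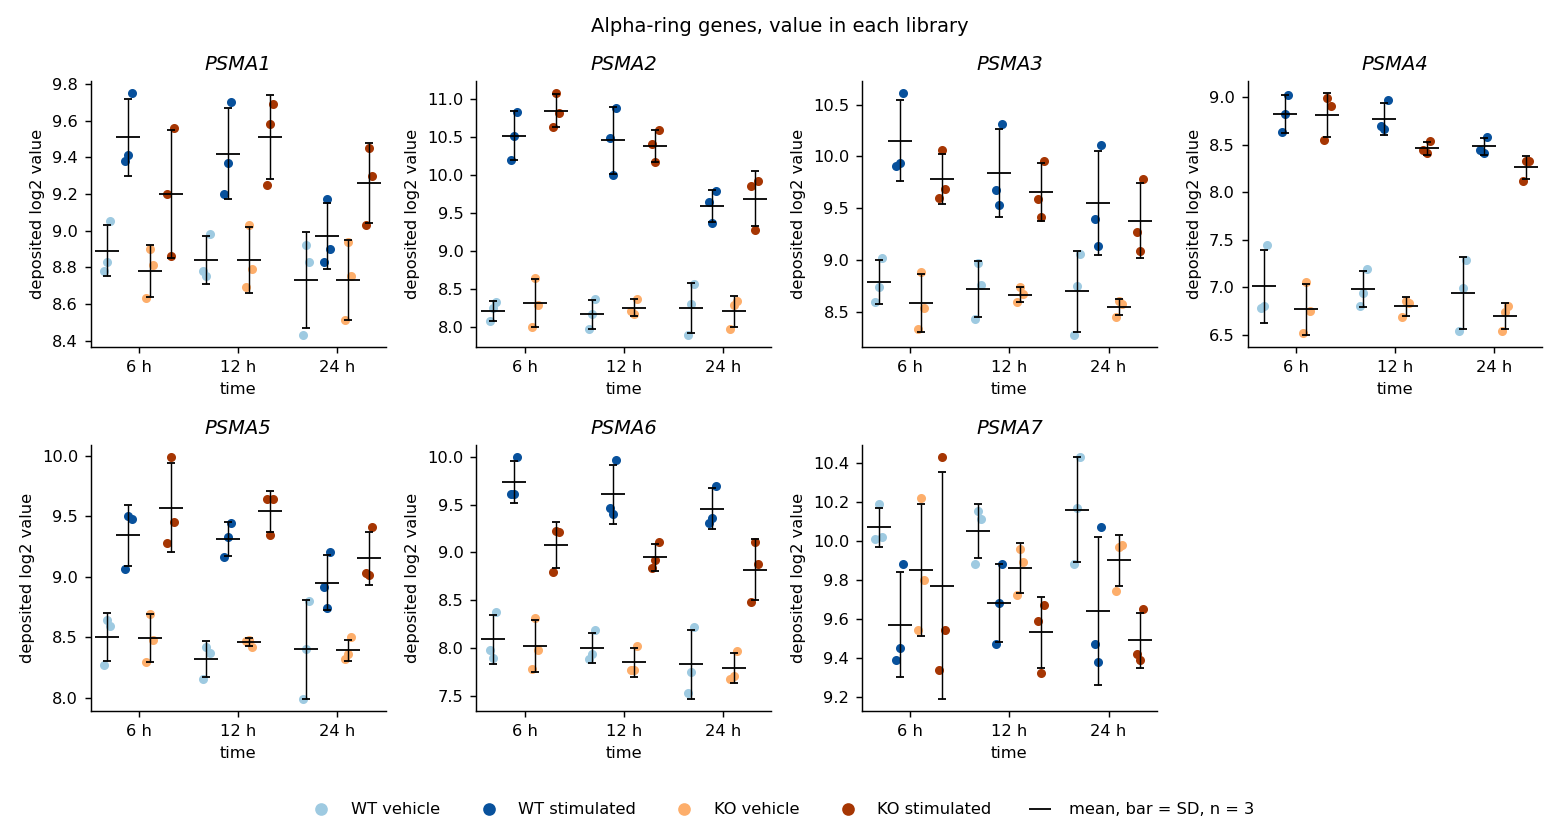
Deposited log2 value (y axis) of each alpha-ring gene in each library, by time (x axis), genotype and treatment, with group means and SD (n = 3). Each panel has its own scale, and stimulated libraries stand above vehicle libraries of the same time and genotype for PSMA2 to PSMA6, except for PSMA5 in WT at 24 h, and below or among them for PSMA7, except for 1 KO library at 6 h that stands above.

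The promoters of these genes were searched for interferon motifs, since interferon-γ was part of the stimulus. RefSeq promoters (GRCh38.p14, 250 bases before to 50 after the start) were matched for 34 of the 38 members. The core of the interferon-stimulated response element, GAAA and again GAAA with 2 bases of any kind between, was found on either strand in 3 of the 34 and in 3.06% of 12517 promoters of protein-coding genes, and the letters TTCNNNGAA of the gamma-activated site in 4 and in 6.59%. The 3 members with the first were PSMA4, PSMB4 and PSMG4, whose transcripts rose, were not called and fell in WT at 24 h, respectively, and PSMA2, PSMC4, PSMD3 and PSME3 held the second. Shown are 50 bases around the matches in the alpha-ring genes with the largest mean changes, PSMA4 and PSMA2, and in PSMB4 and PSMG4, which hold the same letters as PSMA4 and were called up in no WT comparison. Sequences run 5′ to 3′ on the gene's strand and capitals mark the match.
PSMA4, chr15:78540155-78540204, plus strand: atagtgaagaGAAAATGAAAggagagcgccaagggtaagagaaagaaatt
PSMA2, chr7:42932280-42932329, minus strand: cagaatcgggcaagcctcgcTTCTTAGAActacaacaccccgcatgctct
PSMB4, chr1:151399485-151399534, plus strand: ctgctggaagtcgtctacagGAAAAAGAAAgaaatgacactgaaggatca
PSMG4, chr6:3258894-3258943, plus strand: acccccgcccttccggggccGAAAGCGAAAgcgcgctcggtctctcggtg
The match began 240 bases before the start in PSMA4, 135 in PSMA2, 68 in PSMB4 and 33 in PSMG4. The PSMG4 stretch lies inside the span of its gene (chr6:3254404-3268049), so the start used there is not the gene's outermost one. The letters TGACNNNGC of the antioxidant response element, which NRF1 and NRF2 bind, were found in 10 of the 34 promoters and in 14.6% of all promoters. They were found in 0 alpha-ring promoters, of which at most 7 were searched, too few to set against 14.6%, and this was not tested. The letters CCAAT were found in 16 of the 34 and in 36.2% of all promoters, including PSMA2, PSMA3 and PSMA5. A form that NF-κB can bind, GGGA and CC with 4 bases of any kind between, was found in 7 of the 34 and in 30.3% of all promoters.

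The non-catalytic beta subunits PSMB1, PSMB2, PSMB3 and PSMB4, which form the inner rings beside the catalytic subunits, did not follow the alpha ring. In WT cells 0 of the 4 were called at any time, with 0 at an unadjusted p below 0.05 at 6 and 12 h and 1, PSMB1, at 24 h, and their median change was 0.29, 0.22 and -0.22 at 6, 12 and 24 h. PSMB1 changed by -0.12, -0.13 and -0.38 in WT cells, whereas KO cells gave -0.08, -0.04 and 0.00, each ± 0.17. In KO at 6 h PSMB3 was called at 0.90 ± 0.28 (limma adjusted p = 0.0117), from vehicle values of 8.63, 9.43 and 8.94 to stimulated values of 9.60, 10.56 and 9.54. The highest value came from the replicate 2 library that stood apart, and the call was lost without it (0.57, adjusted p = 0.112) and without vehicle replicate 1 (0.72). At 12 h PSMB3 changed by 0.66 in KO (adjusted p = 0.0678, and 0.0288 with the replicate block).

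Of the 6 ATPases of the base, the hexamer that unfolds substrates, PSMC2 rose and 3 others fell. PSMC2 was called at 12 h in both genotypes and at 24 h in KO. In KO at 12 h its vehicle values were 8.70, 8.85 and 8.76 and its stimulated values 9.34, 9.53 and 9.64, and in WT they were 9.02, 9.00 and 8.89 against 9.31, 9.44 and 9.64. The groups did not overlap in either genotype. The changes in KO were 0.04, 0.73 and 0.40 at 6, 12 and 24 h and in WT 0.02, 0.49 and 0.09, each ± 0.14, so the rise was called at the middle time and not at 6 h. The KO 24 h call was lost without vehicle replicate 1 (0.32) or stimulated replicate 3 (0.27). PSMC2 overlaps PMPCB and SLC26A5.

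PSMC3, PSMC4 and PSMC5 fell in WT cells at 24 h. PSMC3 went from 9.11, 9.85 and 9.55 in vehicle to 8.58, 8.69 and 8.69 in stimulated cells, a change of -0.85 ± 0.19 (adjusted p = 0.000679). PSMC4 went from 8.89, 8.97 and 9.25 to 8.21, 8.45 and 8.39, a change of -0.69 ± 0.17 (0.00155). PSMC5 changed by -0.87 ± 0.26 (0.0066), from 8.54, 8.77 and 9.03 to 7.78, 7.37 and 8.59, groups that overlap. The PSMC3 and PSMC4 groups did not overlap, and both calls held without each library. The PSMC5 call was lost without stimulated replicate 2 (-0.60), and its other call, in WT at 6 h (-0.65, adjusted p = 0.048), without vehicle replicate 1 (-0.73), 2 (-0.61) or 3 (-0.61) or stimulated replicate 1 (-0.54) or 2 (-0.65). PSMC5 overlaps FTSJ3. In KO at 24 h the changes of PSMC3, PSMC4 and PSMC5 were -0.39, -0.06 and -0.54, none called. PSMC1, with 6 pseudogene rows, and PSMC6 were called in none of the 6 comparisons, with changes from -0.03 to 0.31.

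Among the scaffold and receptor subunits of the base, PSMD2 fell at all 3 times in WT cells. PSMD2 (Rpn1) docks ubiquitin receptors and shuttle factors. Its WT vehicle values at 6 h were 9.71, 9.85 and 9.13 and its stimulated values 8.96, 9.06 and 8.56, and at 24 h they were 9.55, 9.64 and 8.89 against 8.87, 8.88 and 8.17. Replicate 3 was the lowest in each of these groups, and each stimulated value lay below the vehicle value of the same number. The changes were -0.70 ± 0.22 at 6 h (adjusted p = 0.013), -0.63 ± 0.22 at 12 h (0.0243) and -0.72 ± 0.22 at 24 h (0.00842). In KO they were -0.50, -0.31 and -0.41, not called without the block (0.0257 at 6 h with it).

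These PSMD2 calls depended on single libraries. At 6 h the call was lost without vehicle replicate 1 (-0.63) or 2 (-0.56) or stimulated replicate 3 (-0.55), at 12 h without vehicle replicate 1 (-0.51) or stimulated replicate 1 (-0.64) or 3 (-0.49), and at 24 h without vehicle replicate 2 (-0.58) or stimulated replicate 3 (-0.49). PSMD1 (Rpn2), the other scaffold, was called in WT at 24 h (-0.68 ± 0.21, adjusted p = 0.0101), a call lost without vehicle replicate 2 (-0.55) or stimulated replicate 3 (-0.41). PSMD4 (Rpn10), a ubiquitin receptor, changed by 0.07 to 0.33 over the 6 comparisons and was called in none.

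The 8 lid subunits had 1 rise and 4 falls called in WT and none in KO. In WT the falls were 0%, 12.5% and 37.5% of the lid genes at 6, 12 and 24 h. Of all rows 20.9%, 21.7% and 26.1% fell in WT and 22.5%, 19.5% and 21.6% in KO. The WT rise at 6 h was 12.5% of the lid genes, where 15.1% of all rows rose. These shares were not tested, and no lid gene was called in the interaction of genotype and stimulation. PSMD3 (Rpn3) was called at 12 and 24 h. At 24 h its vehicle values were 9.82, 9.77 and 9.86 and its stimulated values 9.07, 8.91 and 9.11. The groups are far apart relative to their spread, the change was -0.78 ± 0.18 (adjusted p = 0.000707), and the call held without each library. At 12 h the change was -0.52 ± 0.18 (0.0218), lost without vehicle replicate 1 (-0.40) or 3 (-0.48) or stimulated replicate 1 (-0.48) or 3 (-0.50). In KO PSMD3 changed by -0.19, -0.13 and -0.19.

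PSMD14 (Rpn11), the deubiquitinating enzyme of the lid, and PSMD13 (Rpn9) were called in WT at 24 h at -0.46 ± 0.16 (adjusted p = 0.0209) and -0.52 ± 0.20 (0.0321). The PSMD14 call was lost without vehicle replicate 2 (-0.41) or 3 (-0.35) or stimulated replicate 3 (-0.38), and the PSMD13 call without vehicle replicate 2 (-0.55) or 3 (-0.35) or stimulated replicate 1 (-0.41) or 2 (-0.55). PSMD12 (Rpn5) was the 1 lid gene that rose, in WT at 6 h (0.56 ± 0.21, 0.0334), lost without vehicle replicate 1 (0.51) or 3 (0.53) or stimulated replicate 1 (0.53) or 3 (0.47). PSMD6, PSMD7, PSMD8 and PSMD11 were called in none of the 6 comparisons, with changes from -0.48 (PSMD8, WT at 24 h) to 0.30 (PSMD11, KO at 6 h). With the replicate block, PSMD6 (0.0167) and PSMD8 (0.0393) were also called down in WT at 24 h, PSMD3 (0.0437) at 6 h, PSMD14 (0.0314) and the ATPase PSMC3 (0.0384) at 12 h, and PSMB1 (0.0249) at 24 h. In KO at 6 h the block called PSMD11 up (0.0451) and the ATPase PSMC5 down (0.0455).

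The core assembly chaperones pair up to build the alpha ring and join it to the beta subunits. In WT at 24 h PSMG1, PSMG2, PSMG3 and PSMG4 all fell, with a median change of -1.21, and in KO at 24 h PSMG1 and PSMG2 fell. PSMG1 (PAC1), which works as a pair with PSMG2 (PAC2), fell at all 3 times in both genotypes. Its WT vehicle values at 24 h were 7.37, 7.84 and 8.12 and its stimulated values 6.43, 6.24 and 6.08, and in KO they were 7.33, 7.82 and 7.53 against 6.56, 6.76 and 6.64. Neither pair of groups overlapped. The changes were -0.73, -0.69 and -1.53 in WT (adjusted p = 0.0132, 0.0168 and 3.76e-06) and -0.84, -0.91 and -0.91 in KO (0.00418, 0.00231 and 0.00216), each ± 0.23.

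The PSMG1 calls in KO and in WT at 24 h held without each library. Its WT 6 h call was lost without vehicle replicate 2 (-0.60) or stimulated replicate 1 (-0.66) or 2 (-0.62), and its WT 12 h call without vehicle replicate 2 (-0.58) or 3 (-0.65) or stimulated replicate 2 (-0.53). PSMG2 was near 0 at 6 and 12 h in both genotypes (-0.05 to 0.10) and fell at 24 h, by 0.93 in WT (adjusted p = 0.000862) and by 0.59 in KO (0.0312), each ± 0.22. Its WT vehicle values at 24 h were 8.45, 8.54 and 8.96 and its stimulated values 7.70, 7.35 and 8.11. The change at 24 h differed from that at 6 h by -0.98 ± 0.30 in WT (0.0394) and -0.68 ± 0.30 in KO (0.185, and 0.0427 with the replicate block). The KO 24 h call was lost without vehicle replicate 1 (-0.61), 2 (-0.60) or 3 (-0.55) or stimulated replicate 2 (-0.41). PSMG2 overlaps SPIRE1 and CEP76.

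PSMG3 (PAC3) and PSMG4 (PAC4) form the other chaperone pair. PSMG3 fell in WT by 1.18 at 6 h (adjusted p = 0.0019) and by 1.02 at 24 h (0.00509), and in KO by 0.83 at 6 h (0.0244) and by 0.90 at 12 h (0.0161), each ± 0.29. Its WT values at 6 h were 7.13, 7.64 and 7.51 in vehicle and 5.89, 6.41 and 6.42 in stimulated cells, with no overlap, and that call held without each library. The WT 24 h call was lost without vehicle replicate 3 (-0.73), the KO 6 h call without vehicle replicate 2 (-0.66) or stimulated replicate 1 (-0.75) or 3 (-0.56), and the KO 12 h call without vehicle replicate 1 (-0.75) or stimulated replicate 2 (-0.81). With the replicate block PSMG3 was also called in WT at 12 h (-0.64, 0.0493). PSMG4 went from 4.97, 5.23 and 6.15 to 3.91, 3.82 and 4.41 in WT at 24 h, a fall of 1.40 ± 0.38 (0.00312) that held without each library. In KO at 24 h PSMG4 changed by -0.56 (0.255).

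**Figure D3:**
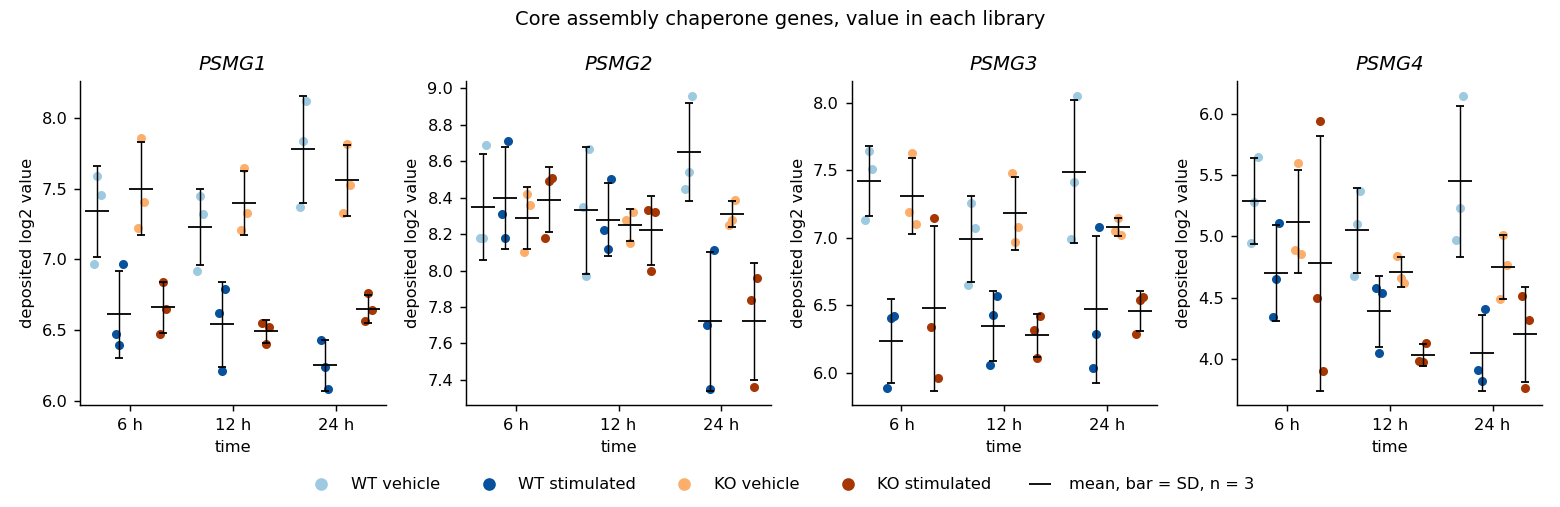
Deposited log2 value (y axis) of the core assembly chaperone genes in each library, by time (x axis), genotype and treatment, with group means and SD (n = 3). The stimulated group means of PSMG1 lie below those of vehicle at each time, and those of PSMG2 lie close to vehicle at 6 and 12 h and below it at 24 h.

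POMP, the chaperone that completes the core, is named outside the PSM series. At 6 h POMP rose in both genotypes, whereas PSMG1 and PSMG3 fell and PSMG2 and PSMG4 were not called. In WT POMP rose by 1.08 at 6 h (adjusted p = 9.54e-06) and 0.92 at 12 h (8.86e-05). At 24 h, where the PSMG genes all fell in WT, the change of POMP was 0.34 (0.095, not called). In KO cells the rises were 1.36, 1.05 and 0.52. Its WT values at 6 h were 10.74, 10.69 and 10.80 in vehicle and 11.67, 11.67 and 12.12 in stimulated cells. The groups did not overlap.

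The chaperones of the base, which hold the ATPases during assembly, showed fewer calls. PSMD9 (p27) was called in WT at 6 h (-0.56 ± 0.20, adjusted p = 0.03) and 12 h (-0.65 ± 0.20, 0.0118) and in KO at 12 h (-0.54 ± 0.20, 0.0389). Its WT values at 12 h were 7.98, 7.71 and 8.17 in vehicle and 7.19, 7.36 and 7.35 in stimulated cells, without overlap. The WT 12 h call was lost without vehicle replicate 3 (-0.54). The WT 6 h call was lost without vehicle replicate 1 (-0.60) or 3 (-0.50) or stimulated replicate 1 (-0.51) or 2 (-0.47), and the KO 12 h call on leaving out any 1 of its 6 libraries (-0.44 to -0.59). With the replicate block PSMD9 was also called in WT at 24 h (-0.45, 0.0452). PSMD10 (gankyrin) was called in WT at 24 h (-0.65 ± 0.25, 0.0328), and this call was lost without vehicle replicate 2 (-0.67) or 3 (-0.44) or stimulated replicate 1 (-0.54) or 3 (-0.53). PSMD5 (S5b) was not called on stimulation, at -0.55, -0.83 and -0.52 in WT and -0.97, -0.22 and -0.01 in KO, each ± 0.48.

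Of the alternative caps and the inhibitor, PSME3 (PA28γ), a nuclear cap, was called in WT at 24 h (-0.56 ± 0.20, adjusted p = 0.0252), lost without vehicle replicate 1 (-0.48) or 2 (-0.44) or stimulated replicate 3 (-0.42). PSMF1 (PI31) changed by 0.18 to 0.42 over the 6 comparisons and was not called. PSME4 (PA200), a cap with a very long transcript, was not called, with a standard error of 0.51. Its values in KO stimulated 6 h cells were 7.91, 4.82 and 7.73, and the lowest came from the replicate 2 library that stood apart.

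The number of falls in WT at 24 h was 14, and it ran from 9 (without vehicle replicate 2) to 16 (without vehicle replicate 1) on leaving out each library. Without vehicle replicate 3 it was 10 and without stimulated replicate 3, the library that stood apart, 11. Of the 19 members called there, 9 kept their call on each omission: PSMA2, PSMA4, PSMA6, PSMC3, PSMC4, PSMD3, PSMG1, PSMG2 and PSMG4. In KO the number of falls at 24 h was 2 and ran from 1 to 3, and at 6 h it was 2 and rose to 6 without stimulated replicate 2.

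Whether stimulation acted differently in the genotypes was tested by the interaction at each time. At 6, 12 and 24 h 0 of the 38 members were called by limma, where 0.452%, 0.16% and 0.433% of all rows were, and 0, 0 and 3 had an unadjusted p below 0.05. Those 3, at 24 h, were PSMC4 (0.63 ± 0.24, adjusted p = 0.263), PSMD3 (0.60 ± 0.25, 0.329) and PSMD1 (0.68 ± 0.30, 0.347). At 24 h the interaction was above 0 in 36 of 38 members and in 55% of all rows, with a median of 0.30 against 0.08, so the point estimates of the stimulated-minus-vehicle change were higher in KO for these 36. The exceptions were PSMA6 (-0.59 ± 0.30, 0.428) and PSMA3 (-0.02 ± 0.36). Without WT vehicle 24 h replicate 3 the number above 0 was 25 and the median 0.17, and without the other libraries of that time it was 30 to 37. The larger number of falls in WT than in KO at 24 h is therefore not accompanied by a called difference in any single member. The median KO minus WT difference of the members at 24 h was -0.15 in vehicle and 0.12 in stimulated cells. That of all rows was -0.02 and 0.06. The interaction is built from both differences.

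**Figure D4:**
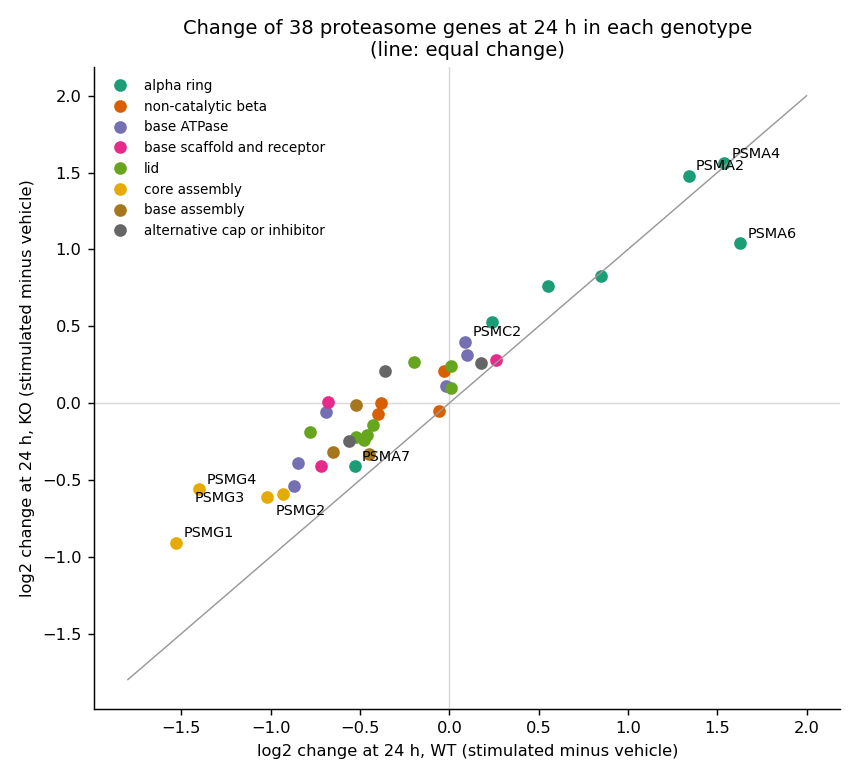
Log2 change on stimulation at 24 h in KO (y axis) against WT (x axis) for the 38 genes, coloured by subcomplex, with the line of equal change. Of the 38 points, 36 lie above the line, and none of these differences was called by limma.

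In direct comparisons of KO with WT, PSMD5 and PSMD11 were lower in KO at 6 h in both treatments. In vehicle cells at 6 h 3 members were lower and 0 higher, where 3.91% and 4.28% of all rows were, and in stimulated cells at 6 h 4 were lower and 0 higher (3.86% and 4.86%). At 12 and 24 h 0 of 38 were called in vehicle cells (5.24% and 3.98% of rows in either direction, with 2 and 3 members at an unadjusted p below 0.05) and 0 in stimulated cells (3.45% and 5.87%, with 2 and 3). These genes are named because they were called, after their values were seen. In vehicle cells the difference was below 0 in 33, 32 and 31 members at 6, 12 and 24 h and above 0 in 5, 5 and 6. Of all rows 46.6%, 48.4% and 48% lay above 0. In stimulated cells 14, 16 and 23 members lay above 0, and 48.2%, 52.7% and 54.3% of all rows. These counts were not tested.

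PSMD5, a chaperone that binds the base and keeps it from joining the core, differed most. At 6 h its vehicle values were 6.75, 6.51 and 6.35 in WT and 5.16, 4.11 and 4.52 in KO, and its stimulated values 6.03, 5.95 and 5.98 in WT and 4.19, 1.81 and 4.88 in KO. The genotypes did not overlap in either treatment. The differences were -1.94 ± 0.48 in vehicle (limma adjusted p = 0.00882), which is 3.84-fold lower, and -2.36 ± 0.48 in stimulated cells (0.00191), or 5.13-fold lower. The value of 1.81 came from the replicate 2 library that stood apart, and without it the stimulated difference was -1.45 (0.0156). At 12 h vehicle values were 6.81, 6.73 and 6.52 in WT and 5.18, 5.62 and 4.96 in KO, and at 24 h 6.87, 6.79 and 6.20 against 5.67, 5.49 and 4.75. The vehicle groups did not overlap at these times either, but the differences of -1.43 (0.081) and -1.32 (0.134) were not called. In stimulated cells they were -0.82 (0.41) and -0.81 (0.335). The 24 h value became -1.28 (0.0219) with both libraries that stood apart left out, and -1.28 (0.202) on leaving out WT stimulated replicate 3 alone. In the fit of all 36 libraries the standard error of 0.48 drew on the spread within all 12 groups. The value of 1.81 at 6 h therefore entered the tests at 12 and 24 h too, in vehicle as in stimulated cells.

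PSMD11 (Rpn6), the lid subunit that clamps the cap to the core, was lower in KO by 0.71 ± 0.13 in vehicle (adjusted p = 0.000691) and by 0.70 ± 0.13 in stimulated cells (0.000949) at 6 h. Its vehicle values at 6 h were 8.12, 8.30 and 8.04 in WT and 7.31, 7.65 and 7.38 in KO, and its stimulated values 8.41, 8.39 and 8.53 against 7.74, 7.68 and 7.81. The genotypes were apart in both treatments. At 12 and 24 h it was lower in vehicle cells by 0.40 (0.0818) and 0.44 (0.0573), and with the replicate block both passed (0.0394 and 0.0246). The calls of PSMD5 and PSMD11 at 6 h held without each library. In a fit of only the libraries compared, PSMD11 was called in neither treatment (adjusted p = 0.0944 in vehicle and 0.24 in stimulated cells), and PSMD5 was called in vehicle (0.0349) and not in stimulated cells (0.228).

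PSMD12, which like PSMD11 belongs to the lid, was lower in KO stimulated cells at 6 h, at 8.70, 7.73 and 8.88 against 9.47, 9.16 and 9.59 in WT. The difference was -0.97 ± 0.21 (adjusted p = 0.00294) and -0.62 (0.0255) without the replicate 2 library, which held the lowest value. PSMD1 was lower in KO vehicle cells at 6 h (-0.68 ± 0.21, 0.0435), and the call was lost on leaving out any 1 of the 6 libraries (-0.58 to -0.77). PSMA6 was lower in stimulated KO cells by 0.66 at 6 h (0.0453), by 0.66 at 12 h (0.0787) and by 0.64 at 24 h (0.0669), each ± 0.21. Its stimulated values at 12 h were 9.47, 9.40 and 9.97 in WT and 8.84, 8.92 and 9.11 in KO, and in vehicle cells the difference was -0.06, -0.15 and -0.05. With the replicate block the stimulated differences at 12 and 24 h passed (0.00813 and 0.00786), and the 6 h call was lost on leaving out any 1 of its 6 libraries (-0.52 to -0.73).

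With the replicate block PSMC2 was called lower in KO vehicle cells at 6 h (-0.38, adjusted p = 0.0496), and PSMC4 (0.47, adjusted p = 0.0476) and PSMD7 (0.45, 0.0453) were called higher in KO stimulated cells at 24 h.

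**Figure D5:**
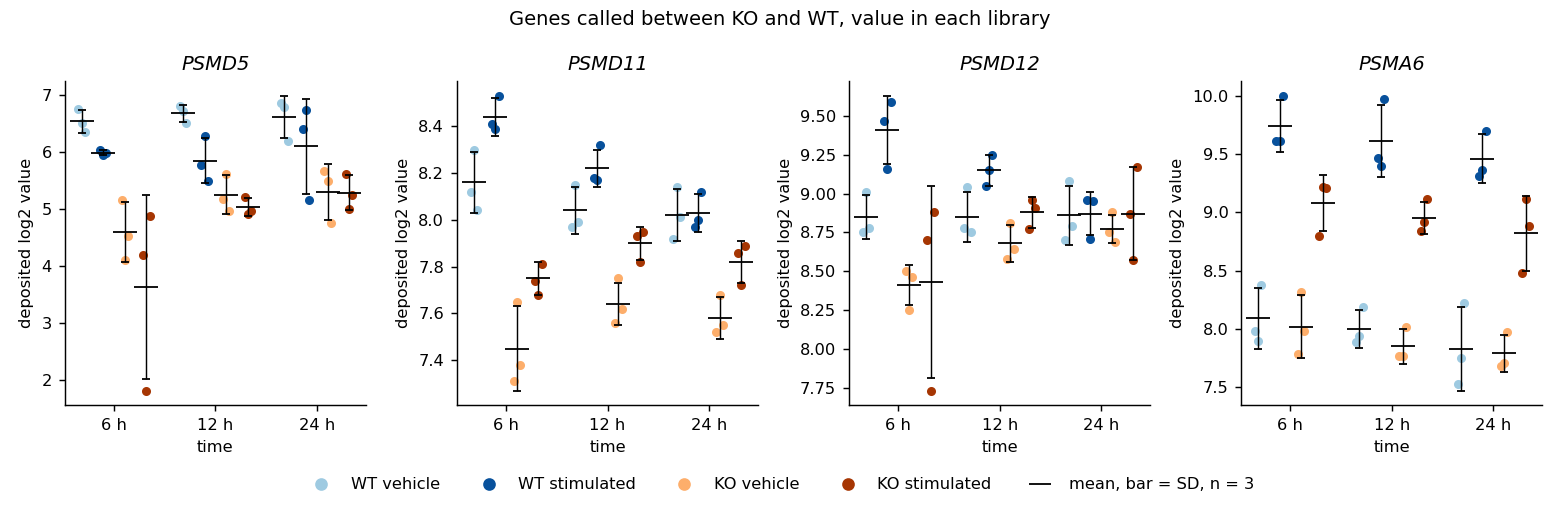
Deposited log2 value (y axis) of PSMD5, PSMD11, PSMD12 and PSMA6 in each library, by time (x axis), genotype and treatment, with group means and SD (n = 3). PSMD5 and PSMD11 are lower in KO than in WT at 6 h in both treatments, and the PSMA6 means of stimulated KO libraries lie below those of WT by 0.64 to 0.66.

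Some libraries deviated from the mean in a way that followed transcript length. Over 14757 genes the Spearman correlation of a library's deviation with the length of the longest GENCODE 29 transcript ran from -0.531 to 0.525, and was -0.473 in KO vehicle 6 h replicate 2 and -0.512 in KO stimulated 6 h replicate 2. The changes on stimulation correlated with length at -0.002 to 0.077, the KO against WT differences at 6 h at -0.114 in vehicle and -0.177 in stimulated cells, and those at 24 h at 0.218 and 0.17. After each library was adjusted for length, PSMD5 differed between KO and WT at 6 h by -1.92 in vehicle (adjusted p = 0.00341) and -2.35 in stimulated cells (0.000543), and PSMD11 by -0.66 (0.0112) and -0.64 (0.0134). PSMA7 was then called down in WT at 6 h (-0.57), 12 h (-0.37) and 24 h (-0.35) and in KO at 6 h (-0.34) and 12 h (-0.36), and PSMD5 was called lower in KO vehicle cells at 12 h (-1.48, 0.0325). In all the adjustment added 24 calls and lost 3. Those lost were PSMD9 in WT at 6 h (0.0763) and PSMD14 (0.0616) and PSMD10 (0.0912) in WT at 24 h. Among those added, PSMD4 was called up at 24 h in WT (0.39) and KO (0.33). PSMA3, PSMB1, PSMC5, PSMC6 and PSMD6 were called lower in KO stimulated cells at 6 h (-0.51 to -0.63).

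Genes that work with the proteasome were read from lists of other names. Of the subunits left out above, PSMB8, PSMB9, PSMB10, PSME1 and PSME2 rose in all 6 stimulation comparisons, with PSMB9 at 2.87, 3.12 and 3.05 in WT, and PSMB5, PSMB6 and PSMB7, whose products the inducible ones replace, were called in none (-0.50 to 0.30). Among 12 partners, 1, 1 and 2 rose and 3, 3 and 4 fell in WT at 6, 12 and 24 h, and 2, 1 and 3 rose and 3, 2 and 2 fell in KO. In WT the rises were 8.33%, 8.33% and 16.7% of partners (15.1%, 16.8% and 20.2% of all rows). The WT falls were 25%, 25% and 33.3% (20.9%, 21.7% and 26.1%). In KO the rises were 16.7%, 8.33% and 25% (16.2%, 15.5% and 17.3%). The KO falls were 25%, 16.7% and 16.7% (22.5%, 19.5% and 21.6%). The differences from all rows were not tested. PAAF1, a chaperone of the base ATPases, fell at all times in both genotypes (-1.18, -0.87 and -0.93 in WT and -0.92, -0.51 and -0.62 in KO), as did PITHD1 (-1.40, -1.03 and -0.94 in WT and -0.96, -0.79 and -0.61 in KO). UCHL5, a deubiquitinating enzyme of the base, fell at all 3 times in WT (-0.73, -1.01 and -1.09) and was not called in KO (-0.69, -0.59 and -0.29). None of the 12 partners, UCHL5 included, was called in the interaction of genotype and stimulation at 6, 12 or 24 h. In direct comparisons of KO with WT, the partner ZFAND5 was called lower in KO stimulated cells at 6 h (-0.86). Of the subunits left out above, PSMB6 was called lower in KO vehicle cells at 6 h (-0.76).

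Of 5 genes that encode or process the transcription factors of proteasome genes, NFE2L2 (NRF2) rose in all 6 comparisons, with 1.59, 1.78 and 2.03 for WT against 1.20, 1.69 and 2.52 for KO cells. NFE2L1 (NRF1), the factor known to raise proteasome genes when the proteasome is inhibited, changed with time. Its WT vehicle values at 24 h were 8.80, 8.72 and 8.03 and its stimulated values 10.85, 11.56 and 9.59, a rise of 2.15 (adjusted p = 1.95e-05), while at 6 h its change was -0.64 in WT (0.175) and -1.34 in KO (0.00403), and at 24 h in KO 1.79 (0.000244). NGLY1, which deglycosylates NRF1, fell at all 3 times in WT (-0.49, -0.63 and -0.65) and at 6 h in KO (-0.42). DDI2, which cleaves NRF1, was called in none, and VCP fell in WT at 24 h (-0.62). None of the 5 was called between genotypes.

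RPS27A, which encodes ubiquitin fused to a ribosomal protein, fell at 24 h in both genotypes (-1.01 in WT and -0.66 in KO), and UBB, a polyubiquitin gene, was called in none of the 6 comparisons. Among 5 shuttle factors, which carry ubiquitinated proteins to the proteasome, UBQLN4 rose at all 3 times in KO (1.56, 0.89 and 0.97) and was not called in WT (0.16, 0.25 and 0.23). No shuttle factor, UBQLN4 included, was called in the interaction of genotype and stimulation at 6, 12 or 24 h. In the direct comparison of stimulated cells at 6 h, UBQLN4 was called higher in KO than in WT (1.06) and RAD23B lower (-0.69). Of all rows 4.86% were called higher and 3.86% lower there. The shuttle factors had no call in the other direct comparisons of the genotypes. RAD23B fell in WT at 6 and 12 h (-0.61 and -0.76) and in KO at 6 h (-0.84). UBQLN1 was called in none.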

How the data were processed

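RNA-seq libraries were made from total RNA after ribosomal RNA depletion, per the labels' protocols. The authors deposited 1 table of log2 expression values for 21599 Entrez Gene rows. Reads were handled with cutadapt 1.9.1, GSNAP and the build GRCh37.p5, per the submitters' processing notes. The counting tool, normalization and offset before the logarithm are not given in the sources used here. Library medians ran from 5.469 to 5.475 and values from -0.34 to 16.75, with 7744 exact zeros and 274 negative values, so libraries share nearly 1 distribution and shifts common to all genes are not visible. Without counts, depth is unknown and no interval from it can be given.

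Symbols came from RefSeq by Entrez ID (20609 matched, 990 not). A row was tested if 3 or more libraries reached 3.32, the log2 of 10, and 367 rows were removed. limma 3.58.1 in R 4.3.3 (12 group means, 36 libraries, 24 residual degrees of freedom, empirical Bayes with trend) gave changes and Benjamini-Hochberg adjusted p-values for 17 comparisons. The analysis was tested on simulated data. Tables, promoter searches and figures used Python 3.11.15 with numpy 2.4.6, pandas 2.3.3 and matplotlib 3.10.9.

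Members, subcomplexes and lists were chosen with earlier results of these data known. Values in every library are given for the member of each subcomplex with the largest mean change among those called at 2 or more of 3 times in a genotype, and further for called members. Of the other lists, genes called at all 3 times in a genotype were named by rule, and the others after their values were seen. Replicate numbers come from the titles. In 9 of 12 comparisons the deviations from group means of each pair of libraries with the same number had a correlation above 0.1 (range -0.15 to 0.589), so the blocked value is given where it changes a call. The exceptions were KO stimulated against vehicle at 24 h and KO against WT at 6 h in both treatments. Alternatives were no filter or a stricter one, quantile normalization or median centring, no trend, library weights, only the libraries compared, a pseudocount of 5, a replicate block and each library left out. Leaving out the 2 libraries that stood apart, and adjusting each library for transcript length with a spline, were added after seeing the data.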

Additional observations from a re-analysis of the deposited data

Results flagged for a closer look

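The change on stimulation differed between 24 h and 6 h for 3 members, by a limma test of the difference itself. PSMA2 in KO cells rose less at 24 h than at 6 h, by -1.05 ± 0.32 (adjusted p = 0.0442). Its KO stimulated values were 10.64, 11.08 and 10.82 at 6 h and 9.86, 9.28 and 9.92 at 24 h. PSMC4 in WT cells went from a change of 0.08 at 6 h to -0.69 at 24 h, a difference of -0.77 ± 0.24 (adjusted p = 0.0394). PSMG2 in WT cells went from 0.05 to -0.93, a difference of -0.98 ± 0.30 (adjusted p = 0.0394). Each of these calls was lost on leaving out several single libraries: PSMA2 in KO ranged from -0.84 to -1.06 in the 7 omissions that lost it, PSMC4 in WT from -0.67 to -0.81 in 8, and PSMG2 in WT from -0.79 to -1.03 in 8. The same difference was -0.95 for PSMA2 in WT (0.0565), -0.33 for PSMC4 in KO (0.463) and -0.68 for PSMG2 in KO (0.185), and these were not called.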

How the results depend on the processing

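No filter, quantile normalization and median centring changed no call of a member. Of 11763 member values under all alternatives, 11412 kept direction and side of the threshold, 169 fell out of it, 181 passed it and 1 reversed: PSME4 in KO at 6 h, -0.23 as reported, was 0.54 with library weights, whose estimation did not converge. With those weights the members called on stimulation were 22, 23 and 23 in WT at 6, 12 and 24 h. In KO they were 22 and 14 at 6 and 24 h. Those called in KO against WT were 16, 6 and 2 in vehicle and 7, 3 and 5 in stimulated cells. Those in the interaction were 1 and 3 at 12 and 24 h. Those in the 24 h against 6 h responses were 5 in WT and 2 in KO. The limma adjusted p of PSMD11 in KO against WT vehicle cells at 6 h went from 0.000691 to 1.07e-08 with the weights. The share of all rows called with these weights is not given here, so the counts are not read as a result about the members. With only the libraries compared (fewer residual degrees of freedom) 9 were called in WT at 24 h, 5 in KO at 6 h, 1 and 1 in KO against WT vehicle cells at 6 and 12 h, 0 in stimulated cells at 6 h and 0 in either 24 h against 6 h response. No trend gave 0 in both of these responses, and a pseudocount of 5 gave 1 in KO against WT vehicle cells at 12 h.

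The replicate block called 1 and 1 member in KO against WT vehicle cells at 12 and 24 h, 1 and 3 in stimulated cells at 12 and 24 h, and 2 in the KO 24 h against 6 h response. It moved 2 further counts by 1.5 times, to 12 in KO at 6 h and 3 in the WT 24 h against 6 h response, and the others by less. It lost no call and added 24. Without the 2 libraries that stood apart 14 were called in KO at 6 h, 1 in KO against WT stimulated cells at 24 h and 0 in the KO 24 h against 6 h response. After adjustment for length 5 and 1 were called in KO against WT vehicle cells at 6 and 12 h, and 9, 1 and 1 in stimulated cells at 6, 12 and 24 h. On leaving out each library the counts ran from 0 to 3 in the WT and 0 to 1 in the KO 24 h against 6 h response, and from 0 to 2 in KO against WT stimulated cells at 24 h. Depth is unknown, so the smallest detectable change is not given. The causes of these differences were not tested except where the construction gives them.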
